A study of Arabidopsis thaliana with 12 samples.

Results

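Knockdown of the exosome subunit RRP41 was read out here in rRNA-depleted (ribo-minus) RNA of Arabidopsis thaliana seedlings. The readout covered putative enhancers, each a window of 3000 bp with a value for either strand, and all 3838 strands of these windows were taken. The comparison used 6 of the 12 libraries of the series: 3 of induced seedlings (rrp41-i) and 3 of uninduced seedlings of the same line (RRP41). All seedlings carried the estradiol-inducible RNA interference construct RRP41-iRNAi and were 7 days old. The induced ones germinated and grew on plates with 17b-estradiol, at 8 mM as the labels write it. Each group held 3 biological replicates of whole seedlings. Estradiol, the induced construct and loss of RRP41 fell in the same libraries and cannot be told apart, and only this one line was sequenced. The other 6 libraries hold poly(A)+ RNA made from the same total RNA, and serve only to show where the ribo-minus change differed from theirs.

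The RNA exosome is a barrel-shaped nuclease complex working on RNA 3' ends, and RRP41 is a subunit of its ring. In plants it is known to process the ends of ribosomal, small nuclear (snRNA) and small nucleolar (snoRNA) RNAs, to clear by-products of their maturation, and to remove short-lived non-coding transcripts. Depletion of rRNA keeps RNA without a poly(A) tail in the library, such as mature snRNAs, which selection for poly(A) tails mostly leaves out.

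Values were the deposited signal per window and strand, whose scaling is not stated and which is not a read count. The smallest value above 0 in a library marks its detection limit. The limit was highest in uninduced replicate 2, and stood at 786 in uninduced replicate 3, 776 in induced replicate 1, 107 in induced replicate 2 and 178 in induced replicate 3. Every value was therefore raised to a floor, the limit of uninduced replicate 2, before log2 was taken, and each log2 change below is on that scale, which understates changes of low strands. Uninduced replicate 1 had the same number on both strands in 100% of its windows, so it was left out of the results by strand and kept where both strands were averaged. Values by library are given in the order uninduced 2 and 3, then induced 1, 2 and 3. The targeted gene could not be checked, since RRP41 lies in 0 of the windows. Of 30 marker genes of seedling tissues, 1 lay in a window (ESB1 of the root endodermis, log2 change -1.27, limma adjusted p = 0.279), so the tissue could not be checked by its markers.

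Most of the enhancer windows held RNA before and after knockdown, and few changed by a called amount. By window, 1228 were above the floor in all 6 ribo-minus libraries, 419 in some and 272 in none. By strand, 1699 were above the floor in all 5 libraries fitted, 985 in none and 525 in 1, and the 2328 above it in at least 2 were tested. At an adjusted p of 0.05 (limma, Benjamini-Hochberg over all strands tested), 14 strands were called, 0.601% of those tested. Of these, 9 rose (0.387%) and 5 fell (0.215%). The rises lay at 9 loci and the falls at 4 loci. Of the rising loci, 3 were the chromosome 5 windows described last. Nearly the same added amount recurs in them, so they cannot be taken as separate observations. Leaving out those 3 windows left 6 rises. At an unadjusted p under 0.05 there were 390 strands, 16.8% of those tested, 55 higher and 335 lower.

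**Figure D1:**
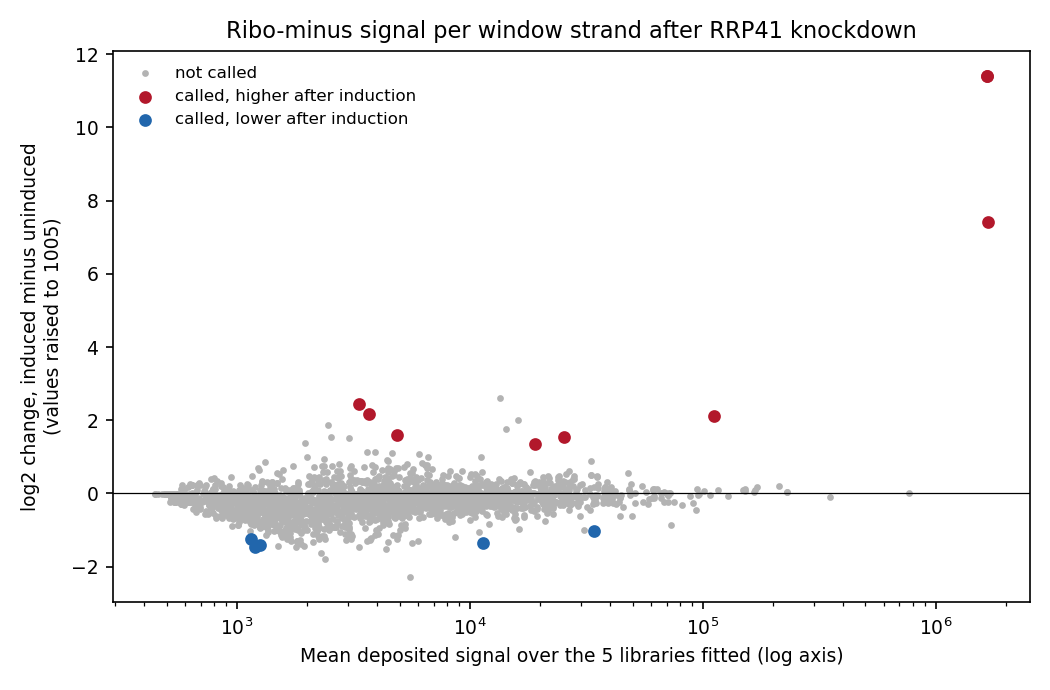
Each point is 1 of the 2328 strands tested, with its mean deposited signal over the 5 libraries on the x axis (log scale) and its log2 change on the y axis, in red for 9 called rises and blue for 5 called falls. Most points lie between -0.5 and 0.5 at high signal, and 3 points at the upper right (2 of them on top of each other) are the chromosome 5 windows.

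Outside that stretch, 6 strands rose. They were a pseudogene transcript beside MST1, the strand opposite TES, the strand opposite AAO2, a window with a pair of snoRNA genes, a window with the U1 snRNA gene U1.7, and BGLU11, a beta-glucosidase gene. The strands of U1.7 and BGLU11 carry a protein-coding gene, as did 2127 of the 2328 strands tested. The strands opposite TES and AAO2 carry no gene, as did 149 tested strands in windows with genes on the other strand. Both passed the filter through the induced libraries, where they are high. The falls were at ADF11, RHD2, PPC3 and CPD. The sequences of the small RNA genes follow, though the deposited value does not show where in a window its signal lay.

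Both snoRNA genes lie in 1 window on the plus strand of chromosome 5, between RING1A and AT5G44290. AT5G06565 spans chr5:17840026-17840123 and AT5G44286 spans chr5:17840220-17840304, on TAIR10.1 as RefSeq gives it. Box C/D snoRNAs, the class that guides methylation of rRNA, carry a C box near the 5' end and a D box near the 3' end. Capitals mark each TGATGA (the core of the C box) and each CTGA (the D box) on the strand shown.

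AT5G06565: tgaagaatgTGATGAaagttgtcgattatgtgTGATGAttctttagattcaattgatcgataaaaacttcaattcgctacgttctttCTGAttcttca

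AT5G44286: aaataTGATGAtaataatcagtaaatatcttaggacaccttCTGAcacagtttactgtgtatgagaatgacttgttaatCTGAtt

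In AT5G06565, 98 bases long, TGATGA began at bases 10 and 33 and CTGA at base 88. In AT5G44286, 85 bases long, TGATGA began at base 6 and CTGA at bases 42 and 80. The annotation calls the second a snoRNA.

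For the U1 genes, the stretch shown is the 100 bases before the annotated start and the first 21 bases of the gene. U1.7 (AT3G01695) is the gene in the window that rose, shown at chr3:1657667-1657787 on the plus strand. U1.4 (AT5G04105), shown at chr5:8972951-8973071 on the minus strand, is the other U1 gene in a tested window, and that window was not called. Capitals mark CCCACATCG, the core of the upstream sequence element of plant snRNA promoters, and ACTTACCTG, the 5' end of U1, which pairs with the 5' splice site.

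U1.7: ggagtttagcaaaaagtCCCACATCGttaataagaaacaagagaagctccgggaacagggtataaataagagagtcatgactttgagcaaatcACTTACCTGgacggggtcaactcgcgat

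U1.4: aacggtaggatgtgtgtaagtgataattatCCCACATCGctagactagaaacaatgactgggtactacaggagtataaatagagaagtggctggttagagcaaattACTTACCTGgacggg

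The upstream element began at base 18 for U1.7 and at base 31 for U1.4. Of all annotated genes, 72 of 37897 (0.19%) held CCCACATCG on either strand in the 100 bases before their start, and of the snRNA genes 29 of 82 (35.4%) did. The 5' end of U1 began at base 94 in the first and at base 107 in the second, before and after the annotated starts. From there on, over the length of the shorter gene, 146 of 159 aligned positions (91.8%) were identical. Reads from near-identical U1 copies could be split or shared between genes in the authors' alignment, so the U1 values are uncertain by that.

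U1 is the RNA that recognises 5' splice sites in pre-mRNA. The plus strand of the U1.7 window (chr3:1655719-1658718) held signal of 14241 and 9730 in uninduced and 37820, 30329 and 34174 in induced libraries. Every induced library lay above both uninduced ones. The mean rose from 11986 ± 3190 (SD, n = 2) to 34108 ± 3746 (SD, n = 3), a log2 change of 1.53 ± 0.19 (SE; limma, adjusted p = 0.024). Without limma's trend the adjusted p was 0.0612. The same strand carries the 3' end of AT3G05670, a RING/U-box gene, and the deposited value does not separate the gene from U1.7. On the minus strand of that window, AT3G05675, a BTB/POZ domain gene that overlaps U1.7, had 1293 and 1835, then 1294, 668 and 637 (log2 change -0.49 ± 0.22, adjusted p = 0.32).

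In the U1.4 window, signal was 19958 and 17154 before and 19719, 20017 and 16525 after induction. The groups overlapped, and the log2 change was 0.01 ± 0.15 (SE; limma, adjusted p = 0.974). That strand also carries EIF3B-2, AT5G25770 and the snRNA gene U4.5. U2.3 and U2.6, genes of the snRNA that pairs with the branch point, gave the strongest small RNA signal. U2.3 held 823612 and 705509, then 751260, 907579 and 676143 (log2 change 0.02 ± 0.28, adjusted p = 0.981). At U2.6 the values were 219852 and 227472, then 230663, 263325 and 205147 (0.05 ± 0.18, adjusted p = 0.934), and a pair of overlapping windows gave the same numbers.

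Among the remaining snRNA windows, U2.10b/12 changed by 0.09 ± 0.33 (adjusted p = 0.934) and the window with U6.6 by 0.46 ± 0.37 (adjusted p = 0.573). U6 is the snRNA at the catalytic core of the spliceosome. The window with U6-26, LBD22 and AT3G13857 went from 1408 and 1048 to 1825, 2274 and 3416, so its groups did not overlap, but it was not called (log2 change 0.99 ± 0.33, adjusted p = 0.207). In all, 8 of 10 snRNA strands passed the filter, and 1 rose and 0 fell, against 0.387% and 0.215% of all strands tested. The snRNA strands had a median log2 change of 0.07, against -0.18 over all strands tested. All 8 changes, those of the 2 U2.6 windows being the same values, were above 0, but only 3 were without induced replicate 2 and 5 without uninduced replicate 3, so no direction is given for the group.

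The snoRNA pair at AT5G06565 and AT5G44286 (chr5:17838993-17841992, plus strand) held 2123 and 2235 in uninduced and 7244, 6194 and 6450 in induced libraries. All 3 induced libraries were above both controls, from 2179 ± 79.2 (SD, n = 2) to 6629 ± 547 (SD, n = 3). The log2 change was 1.60 ± 0.24 (SE; limma, adjusted p = 0.0377). The change stayed between 1.54 and 1.65 when any induced library was left out, but the call was then lost (adjusted p = 0.102 to 0.112). A cluster of AT3G03435, AT3G03445, AT3G03415 and AT3G03425 on chromosome 3 held 3316 and 3184, then 4491, 5695 and 5639. These groups did not overlap either, but with a log2 change of 0.69 ± 0.25 the adjusted p was 0.229. The remaining 4 snoRNA strands, which share their window with larger genes, had log2 changes of -0.37 to -0.76 and adjusted p of 0.19 to 0.431. Thus 1 of 6 tested snoRNA strands rose and 0 fell, against 0.387% and 0.215% of all strands tested. At an unadjusted p under 0.05, 2 snoRNA strands were higher and 2 lower (66.7%, against 16.8% over all strands tested).

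**Figure D2:**
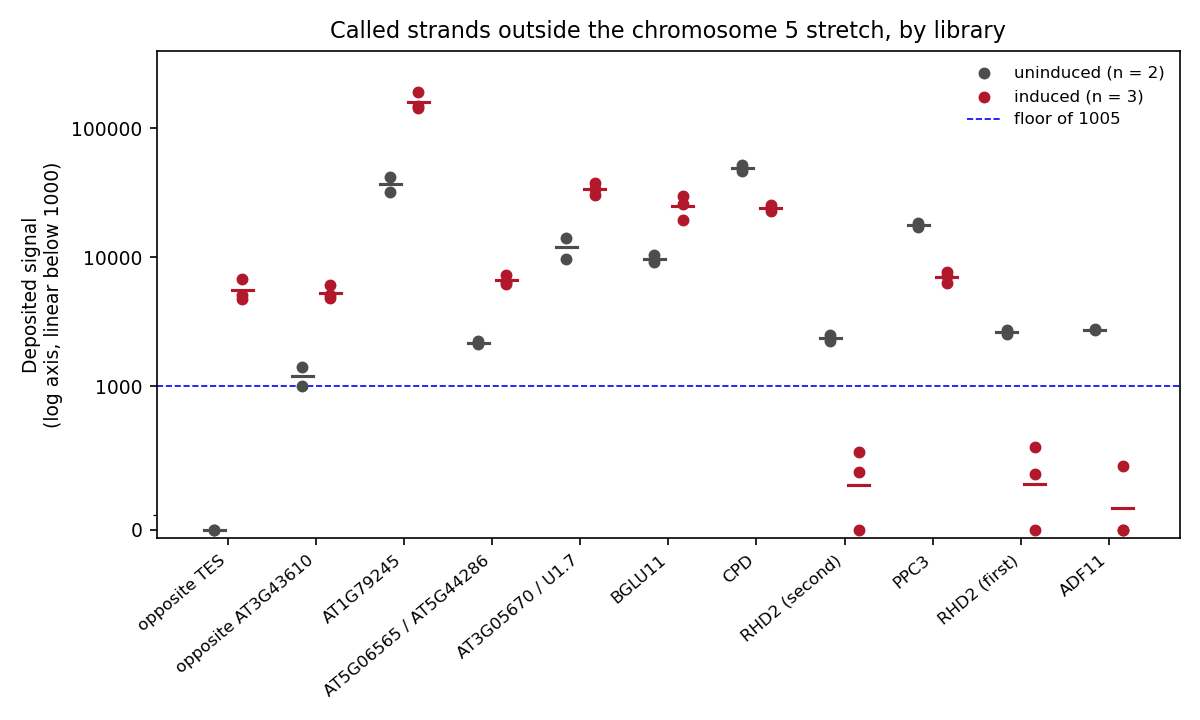
Points are deposited signal per library for the 11 called strands outside the chromosome 5 stretch, grey for uninduced replicates 2 and 3 and red for the 3 induced replicates, with a bar at each group mean and the floor as a dashed line (log axis, linear below 1000). The colours do not overlap at any strand, and the induced values of ADF11 and RHD2 lie under the floor.

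AT1G79245, annotated as a transcribed pseudogene, gave the largest signal among the rises outside the chromosome 5 stretch. It lies on the minus strand of the window chr1:29802832-29805831, beside MST1, a mercaptopyruvate sulfurtransferase gene. Signal was 31890 and 42042 in uninduced and 191043, 147908 and 144549 in induced libraries. Each induced library held more than 3 times the higher control, and the mean went from 36966 ± 7179 (SD, n = 2) to 161167 ± 25928 (SD, n = 3). The log2 change was 2.13 ± 0.19 (SE; limma, adjusted p = 0.00491). MST1 itself, on the plus strand of the window, had 28046 and 20755, then 20648, 19104 and 22221, and was not called (log2 change -0.23 ± 0.17, adjusted p = 0.528). Averaged over both strands, where uninduced replicate 1 could be used, the window held 16296, 29968 and 31399 in the 3 uninduced libraries and 105846, 83506 and 83385 in the induced ones (log2 change 1.86 ± 0.24, adjusted p = 0.00362).

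Of the strands that carry no gene, 149 were tested in windows whose genes lie on the other strand. Of these 3 rose, 1 of them in the chromosome 5 stretch, and 0 fell, while 0.387% rose and 0.215% fell over all strands tested. The 3 that rose passed the filter through the induced libraries, where they are high. At an unadjusted p under 0.05, 6 of the 149 were higher and 21 lower (18.1%, against 16.8% over all strands tested). Of the 149, 36 were above and 113 below 0, with a median log2 change of -0.18, as over all strands. Opposite TES, a kinesin gene needed for cell division in pollen formation, the minus strand of chr3:15189170-15192169 was listed at 0 in both uninduced libraries and held 6787, 4716 and 5133 after induction (limma, adjusted p = 0.0228). This strand passed the filter only through the induced libraries, where it is high. Its uninduced group had no spread once raised to the floor. On the gene's own strand the values were 2253 and 1573, then 1442, 670 and 1249 (log2 change -0.63 ± 0.25, adjusted p = 0.279). In the strand averages of all 6 libraries, this window had 749, 1127 and 787 before and 4115, 2693 and 3191 after induction.

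Opposite AAO2, an aldehyde oxidase gene, and AT3G43610, the plus strand of chr3:15516144-15519143 went from 1408 and 1001 to 4861, 5069 and 6067. Each induced library lay above both controls (1205 ± 288, SD, n = 2, against 5332 ± 645, SD, n = 3). The log2 change was 2.16 ± 0.30 (SE; limma, adjusted p = 0.0308). The lower control lay under the floor, so the filter was passed through the induced libraries.

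The share of signal on the strand without genes was taken over the 1124 windows with genes on 1 strand. It was 2.94% ± 0.113 (SD, n = 2) in uninduced and 19.5% ± 2.73 (SD, n = 3) in induced libraries. Without the chromosome 5 windows it was 2.87% and 3.02%, then 3.63%, 1.61% and 1.05%, so induced replicate 1 lay above both controls and the other two below. The difference, induced minus uninduced, was then -0.85 percentage points, against 16.6 points with those windows (exact permutation tests, two-sided, p = 0.6 and p = 0.2, which is the smallest that 2 against 3 libraries can give).

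BGLU11 encodes a beta-glucosidase of the family that releases compounds from their sugar conjugates. Its window (chr1:632020-635019, plus strand) went from 9158 and 10388 to 29846, 25875 and 19624. The groups did not overlap, and the mean rose 2.57-fold, from 9773 ± 870 (SD, n = 2) to 25115 ± 5153 (SD, n = 3). The log2 change was 1.34 ± 0.20 (SE; limma, adjusted p = 0.0377, and 0.0744 without the trend). It was the only one of the 6 rises outside chromosome 5's stretch that lay on a strand whose sole annotation was a protein-coding gene.

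The falls were all at protein-coding genes, at 2 of them near the detection limit. CPD is a cytochrome P450 of brassinosteroid synthesis, a growth hormone pathway. The minus strand of its window (chr5:1701028-1704027) held 46608 and 51571 in uninduced and 23034, 24184 and 25654 in induced libraries. Every induced value was at about the same level and below both controls. The mean went from 49090 ± 3509 (SD, n = 2) to 24291 ± 1313 (SD, n = 3), a log2 change of -1.01 ± 0.12 (SE; limma, adjusted p = 0.0233). The call was lost with median-ratio scaling (-0.88, adjusted p = 0.0628) and without limma's trend (adjusted p = 0.0733).

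PPC3 encodes a phosphoenolpyruvate carboxylase, an enzyme that fixes bicarbonate into oxaloacetate. Its window, centred on the 5' UTR (chr3:5023720-5026719, plus strand), had 17303 and 18377 before and 7642, 6344 and 7131 after induction. The groups lay well apart, at 17840 ± 759 (SD, n = 2) and 7039 ± 654 (SD, n = 3). The log2 change was -1.35 ± 0.16 (SE; limma, adjusted p = 0.0228).

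ADF11 encodes an actin depolymerizing factor and RHD2 an NADPH oxidase needed for root hair growth. ADF11 (chr1:273525-276524, plus strand) went from 2781 and 2728 to 0, 0 and 447. RHD2 (chr5:20757323-20760322, minus strand) went from 2556 and 2753 to 0, 386 and 574, and an overlapping window of RHD2 from 2263 and 2509 to 0, 402 and 540. All induced values lay under the floor, so the log2 changes of -1.45 ± 0.19, -1.40 ± 0.19 and -1.25 ± 0.18 (limma, adjusted p = 0.0265, 0.0291 and 0.0377) were measured against the floor and not against the RNA. These 3 strands passed the filter only through the uninduced libraries, where they are high, and the induced group had no spread once raised to the floor. Their calls were lost with a doubled floor (adjusted p = 0.181 to 0.435), with no floor (0.267 to 0.443) and without any 1 of the induced libraries (0.102 to 0.156), so of the 5 called falls only those of CPD and PPC3 were measured above the floor in every library.

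Without uninduced replicate 2 or uninduced replicate 3, 1 control library remained, which was assumed to vary like the induced ones. The 3 chromosome 5 strands were called in both of these fits, with 3 and 5 calls in all. Of the other 11, ADF11 and both RHD2 windows were not tested, and the 8 tested ones were not called (adjusted p = 0.0629 to 0.186). Their changes kept their direction: AT1G79245 stood at 1.93 and 2.33, PPC3 at -1.39 and -1.30 and CPD at -1.09 and -0.94. Leaving out induced replicate 1 kept 4 of the 14, AT1G79245 and the 3 chromosome 5 strands. Without induced replicate 2, 10 of the 14 were kept, and without induced replicate 3, 9. With no filter on low strands, and with all 6 libraries including the one with unseparated strands, the other 11 were not called (adjusted p = 0.0524 to 0.0728, and 0.149 to 0.812). The 14 strands had non-overlapping groups, as did 5.41% of all strands tested in the upward direction and 28.2% in the downward direction.

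Requiring signal above the floor in at least 3 of the 5 libraries tested 2070 strands and called 33 (1.59%), 15 higher and 18 lower. It kept 11 of the 14, and ADF11 and both RHD2 windows were not tested. The 22 further strands, 6 higher and 16 lower, had adjusted p of 0.057 to 0.112 among all 2328 strands, and their groups did not overlap. They are named here after their values were seen. AT5G27120, a NOP56-like gene, went from 7041 and 6903 to 15989, 14102 and 11945 (log2 change 1.00 ± 0.18). NOP56 is a core protein of box C/D snoRNA particles. AT5G13210, of unknown function, went from 1508 and 6723 to 22001, 21470 and 15889, with controls far apart (2.62 ± 0.55).

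Among the 16 further strands with lower values was DWF1, which encodes a sterol reductase of brassinosteroid synthesis. It held 96201 and 104222, then 48617, 50566 and 67302 (log2 change -0.87 ± 0.17, adjusted p = 0.0814 over all strands). DFL1, an auxin-conjugating GH3 enzyme, went from 20601 and 25565 to 10473, 11775 and 13066 (-0.97 ± 0.17, adjusted p = 0.0687). The lipid-transfer family gene AT3G58550 had the lowest log2 change of these, -2.29 ± 0.50, from 8199 and 12510 to 1087, 2347 and 3473 (adjusted p = 0.0956). SBT4.12, a subtilase, and AT3G24020, a dirigent-like gene, changed by -1.52 ± 0.27 and -1.78 ± 0.30. CNGC9, a cyclic nucleotide gated channel, and MPK11, a MAP kinase, changed by -1.29 ± 0.22 and -1.18 ± 0.20. Their induced values lay near or under the floor, at 1204, 1236 and 1015 for CNGC9 and 1035, 833 and 1113 for MPK11. With a doubled floor these changes were -0.483 and -0.242 (limma, adjusted p = 0.155 and 0.479). At AT3G24020 induced replicate 2, with 781, was under the floor.

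Averaging both strands kept uninduced replicate 1 and called 12 of 1523 windows (0.788%), 9 higher and 3 lower. The higher ones were BGLU11, AT1G73600 (a methyltransferase family gene), AT1G79245, U1.7, the TES window, AT5G13210 and the 3 on chromosome 5. The lower ones were DWF1 and a pair of overlapping windows of AT5G17460, a glutamyl-tRNA amidotransferase subunit. DWF1 stood at 55919, 48101 and 52701 before and 24697, 25451 and 33889 after induction, with no overlap (log2 change -0.91 ± 0.17; limma, adjusted p = 0.0278). AT5G17460 stood at 5055, 4192 and 4638 before and 1918.5, 1994 and 2020 after (-1.22 ± 0.22, adjusted p = 0.0278).

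Other RNA decay factors in the windows were not called. XRN3, the nuclear 5' to 3' exoribonuclease, held 13022 and 16428, then 15996, 13376 and 13727 (log2 change -0.03 ± 0.17; limma, adjusted p = 0.966). EMB2763, the exosome's RRP44-type ribonuclease, changed by 0.18 ± 0.20 and CER7, a core exosome subunit known for its part in wax synthesis, by 0.08 ± 0.24. The window with DCP2, the decapping enzyme, and ABCG6 changed by 0.04 ± 0.28. So 0 of these 4 strands were called, and 0 passed an unadjusted p of 0.05.

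Gene lists drawn from the descriptions also held 0 called strands in the fit of 2328. Of 15 splicing factor strands, 4 were higher and 2 lower at an unadjusted p under 0.05, with a median log2 change of -0.01. Of 20 ribosomal protein strands, 1 was higher and 2 lower, with a median of 0.11. Cell wall genes (53 strands, 1 higher and 8 lower, median -0.22) and hormone genes (29 strands, 1 and 3, median -0.23) lay near the median of all strands, -0.18. So did the 33 strands of cuticle and lipid transfer genes (0 higher and 5 lower), the 51 of defence (1 and 8), the 119 of transcription factors (3 and 12), the 106 of transporters (3 and 19), the 41 of chromatin (0 and 7) and the 231 of kinases and receptors (5 and 29), at medians of -0.12 to -0.23. In the lists from ribosomal proteins to kinases and receptors, the share at an unadjusted p under 0.05 was 12.6% to 20.8%. Light-harvesting and Rubisco genes had 0 strands.

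By gene type, 93 lncRNA strands and 53 tRNA strands held 0 calls each, with 2 higher and 13 lower, and 1 higher and 6 lower, at an unadjusted p under 0.05. These are shares of 16.1% and 13.2%, against 16.8% over all strands tested. Of 40 strands with transcribed pseudogenes 1 rose, AT1G79245. Of 2127 strands with protein-coding genes, 4 rose and 5 fell.

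Small shifts below 0 were widespread and went with signal level and with the library. The median log2 change was -0.25 for the 735 strands with a mean under 2 floors, -0.22 for the 612 from 2 to 5 floors, -0.10 for the 747 from 5 to 20 floors and -0.04 for the 234 from 20 floors up. By library, the lowest class had medians of -0.15, -0.40 and -0.35 in induced replicates 1, 2 and 3, and the highest class 0.14, -0.08 and -0.16. Induced replicates 2 and 3 are the libraries with the lowest detection limits, and the part of depth in these shifts was not tested. Median-ratio scaling raised the median of all strands by 0.10. Among the 981 strands with a mean of at least 5 floors, 88.3% stayed within 0.5 of 0, and 1.83% went beyond 1, 11 upward and 7 downward. The upward ones include the 3 chromosome 5 strands, and ILL3, where induced replicate 2 stood far above the rest.

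**Figure D3:**
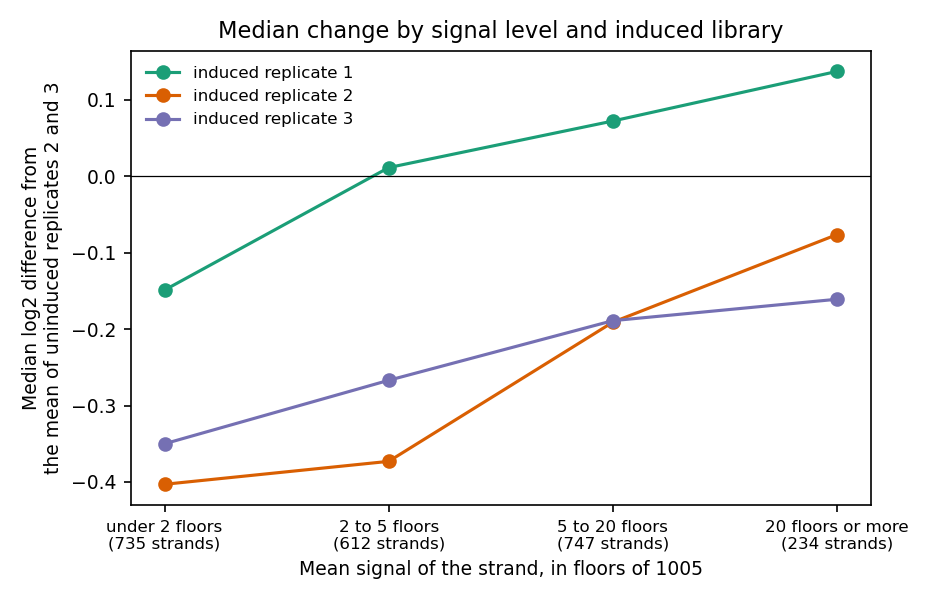
Median log2 difference of each induced replicate from the mean of uninduced replicates 2 and 3 (y axis), for strands grouped by mean signal in multiples of the floor (x axis). Induced replicate 1 lies above the other two in every class, and all 3 lines rise from the lowest to the highest class.

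Counts of transcribed windows did not separate the groups. Windows above the floor numbered 1386, 1507 and 1481 in uninduced and 1480, 1308 and 1332 in induced libraries (1458 ± 63.7 against 1373 ± 93.2, SD, n = 3 each). The ranges overlapped, with an exact permutation p of 0.2, two-sided, adjusted over 3 such measures to 0.3, where 0.1 is the smallest that 3 against 3 can give. Strands above the floor numbered 2301 and 2403, then 2468, 1776 and 1839 (exact permutation p = 0.6).

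In poly(A)+ RNA of the same seedlings, 8 of the 11 called strands outside the chromosome 5 stretch are listed next, and PPC3 and RHD2 after them. Both fractions come from the same RNA samples, so their changes are shown side by side and not as support for each other. AT1G79245 changed by 2.16 ± 0.11 in poly(A)+ RNA (2.13 in ribo-minus), the strand opposite TES by 1.92 ± 0.18 and the one opposite AAO2 by 2.66 ± 0.18. The snoRNA pair changed by 1.46 ± 0.22, BGLU11 by 1.08 ± 0.14, U1.7 by 0.95 ± 0.16, CPD by -0.95 ± 0.10 and ADF11 by -1.43 ± 0.19. Adjusted p for these 8 was 4.36e-05 to 0.00742 (limma), and the difference between the fractions was not called for any of them (adjusted p 0.583 to 0.975). In poly(A)+ RNA every uninduced value of the snoRNA pair and of the strands opposite TES and AAO2 lay under the floor. So did every induced value of ADF11. The poly(A)+ changes of these strands, and their differences between the fractions, were therefore measured against the floor. PPC3 had little poly(A)+ signal, 954, 2449 and 3388 before and 1912, 1783 and 1866 after induction, and was not called there (-0.13 ± 0.39, adjusted p = 0.855). RHD2 changed by -0.68 ± 0.25 and -0.37 ± 0.17 in its windows and was not called either (adjusted p = 0.109 and 0.203). The difference between the fractions was not called for PPC3 (adjusted p = 0.536) or the first RHD2 window (0.481). It was called for the second RHD2 window (-0.87, adjusted p = 0.0306), though not with the RNA sample as a block (0.307).

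**Figure D4:**
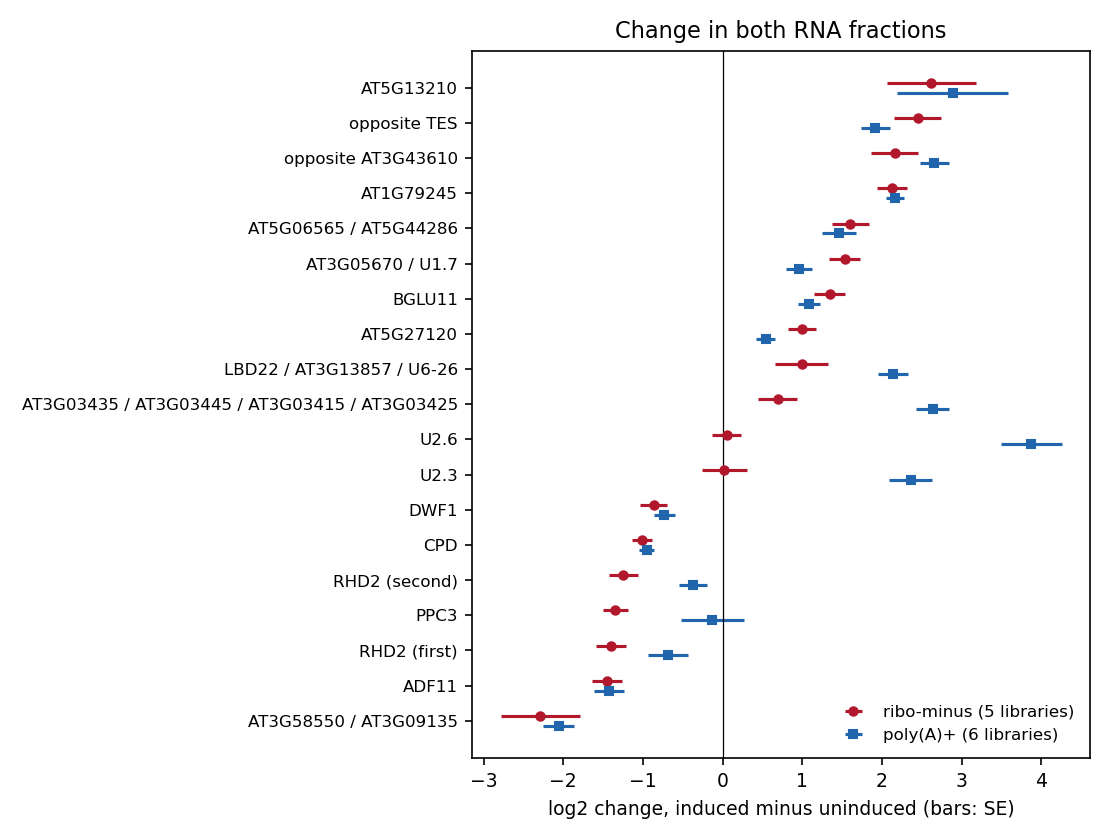
Log2 change after induction with its SE (x axis) for the 11 called strands outside the chromosome 5 stretch and 8 further strands named in the text (y axis), with ribo-minus RNA as red circles and poly(A)+ RNA as blue squares. U2.6 and U2.3 lie at 0.05 and 0.02 in ribo-minus and at 3.87 and 2.36 in poly(A)+ RNA.

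A test of the difference between the changes in both fractions (interaction, 11 libraries) called 26 of 2534 strands (1.03%). For 24 the ribo-minus change was the lower one and for 2 the higher. With the RNA sample, taken from the replicate number, as a block 0 were called, with 250 at an unadjusted p under 0.05 and adjusted p of 0.0718 to 0.178 for the strands named next. U2.6 had poly(A)+ values of 1026, 2269 and 1332 before and 16032, 16328 and 37167 after induction, so the groups did not overlap, while its ribo-minus groups overlapped. The difference was -3.82 (ribo-minus minus poly(A)+, adjusted p = 0.00894 without the block). For U2.3 it was -2.34 (adjusted p = 0.0224), with poly(A)+ values of 12307, 23194 and 17267, then 69997, 74191 and 128506.

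AT3G28170, an uncharacterized gene, held 2186 and 3558, then 2957, 1971 and 2672 in ribo-minus RNA. In poly(A)+ RNA it went from 990, 515 and 899 to 7546, 5421 and 6322, a difference of -2.82 (adjusted p = 0.00894). The uninduced poly(A)+ values lay under the floor, so this difference was measured against it. The strand opposite AT5G41780 and AT5G41770 was listed at 0 in the uninduced libraries of both fractions. After induction it held 1122, 537 and 982 in ribo-minus and 5557, 3592 and 6593 in poly(A)+ RNA (difference -2.29, adjusted p = 0.00894). Both strands with the higher ribo-minus change were AT5G53850, in the stretch described next, and the strand opposite AT1G70450, which held 3658, 2518 and 2475, then 901, 725 and 0 in poly(A)+ RNA and was under the floor in all 5 ribo-minus libraries.

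The largest changes lay on the minus strand of 3 windows of chromosome 5 whose outer ones have centres 46565 bp apart. The first (chr5:21820756-21823755), opposite MLO11, was listed at 0 in both uninduced libraries and held 2546540, 3482575 and 2294354 in the induced ones. The third (chr5:21867321-21870320), on the strand of ENODL1, an early nodulin-like gene, was listed at 0 and held 2546540, 3482681 and 2294479 (limma, adjusted p = 9.5e-08 for each of both outer windows). Both outer windows passed the filter only through the induced libraries, where they are high, and their uninduced groups had no spread once raised to the floor. The second (chr5:21859543-21862542), on the strand of AT5G53850, went from 15884 and 16491 to 2564001, 3498907 and 2310257 (log2 change 7.41 ± 0.24; limma, adjusted p = 5.35e-06).

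The same amount recurred in the 3 windows, although a gap of 43565 bp separates the first from the third. Within a library the first and the third differed by 0, 106 and 125. The second exceeded the first by 16565 ± 805 (SD, n = 3), against a whole value of 16188 ± 429 (SD, n = 2) in the uninduced libraries. The plus strands of the 3 windows were not called, and the first held 2789 and 3558, then 3230, 4078 and 4224 (log2 change 0.28 ± 0.28, adjusted p = 0.664). In poly(A)+ RNA the first window was at 0 in the 3 uninduced libraries and at 323173, 463837 and 28047 in the induced ones.

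The 3 windows held 24.4%, 34.3% and 26.1% of all signal in the induced ribo-minus libraries and at most 0.233% in any uninduced one. The total was 18738150 to 22715708 in uninduced and 26531272 to 31455657 in induced libraries, and without the 3 windows 18694424 to 22677162 and 19606270 to 23770709. What RNA the amount comes from was not tested.

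In the windows on either side no strand was called. VPS26A, a vacuolar sorting gene on the minus strand of the window before, held 9039 and 11669, then 8509, 9160 and 8394 (log2 change -0.24 ± 0.18, adjusted p = 0.528). After the stretch, on the plus strand, 1 library stood apart. HGO, homogentisate dioxygenase of tyrosine breakdown, had 16325 and 14179, then 13733, 77305 and 12169, and ILL3, an IAA-amino acid hydrolase-like gene, 2645 and 2150, then 2118, 67579 and 6144. Induced replicate 2 was the high one in both, neither was called (adjusted p = 0.708 and 0.465), and in poly(A)+ RNA the high library was induced replicate 3, with 139700 and 118421.

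**Figure D5:**
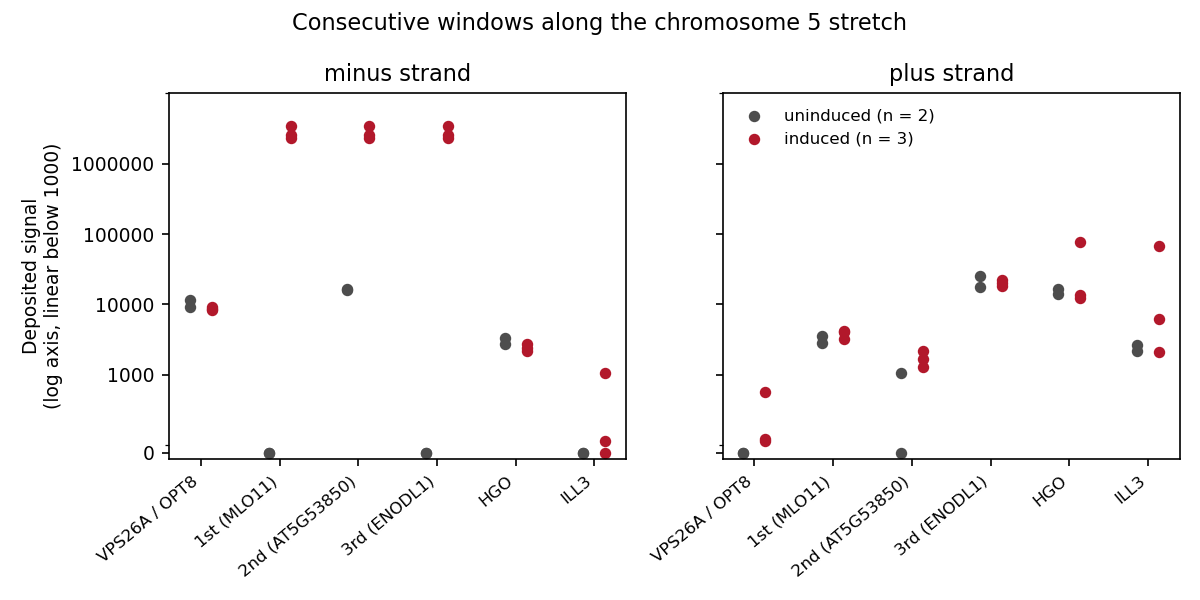
Deposited signal (y axis, log scale, linear below 1000) on the minus strand (left) and plus strand (right) of 6 consecutive windows of chromosome 5, grey for uninduced replicates 2 and 3 and red for the 3 induced replicates. On the minus strand the 3 windows in the middle of the stretch reach 2294354 to 3498907 after induction, and on the plus strand a single induced library lies far above the rest at HGO and at ILL3.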

How the data were processed

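Ribo-minus and poly(A)+ libraries of induced and uninduced seedlings were grouped by their labels. The submitters' processing notes name TopHat2 2.0.9, CASAVA 1.8.2, Cuffdiff and Cufflinks 2.1.1, with TAIR10, and give no role for them. The authors deposited, for either strand of each window of 3000 bp, a signal that is a whole number. Its scaling is not stated, so depth in reads is unknown and the smallest value above 0 stands for it. Windows were placed on the RefSeq annotation of TAIR10.1, whose chromosomes hold every window, with coordinates counted from 1.

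Values raised to the floor (the smallest value above 0 of the library where that value is highest) were taken to log2 and fitted with limma 3.58.1 in R 4.3.3 (eBayes with trend), without rescaling. A strand or window was tested if above the floor in at least 2 libraries. P-values were adjusted by Benjamini-Hochberg at 0.05. Group means of single values per library were tested by exact permutation, two-sided. The self-test on simulated data for the strand fit held 2321 strands. It recovered 78% of 100 changes of 1 and 92% of 100 changes of 2 (log2), with 3.41% false calls among those made. The changes were planted only in strands with a mean above 5 floors, and the noise of every simulated strand was drawn from such strands. These rates were therefore not measured with the noise of strands of low signal. In the real data strands of low signal varied more between uninduced libraries (SD 0.251 at a mean under 2 floors, against 0.119 from 20 floors up). The rates are therefore not taken to hold for low strands. Figures used matplotlib 3.10.9.

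Named strands were the called ones with non-overlapping groups (up to 15 each way), all snRNA, snoRNA and RNA decay strands, the 5 largest interactions each way and the 3 chromosome 5 windows. Members and lists were chosen with earlier results of these data known. The labels say that both fractions were made from the same total RNA. Over 1202 windows, same-numbered libraries of the fractions deviated together (r = 0.1045 to 0.3633, against at most 0.0982 for other pairs). The margin was small for poly(A)+ induced replicate 2, and HGO and ILL3 were high in differently numbered libraries of the fractions. The number was taken as the RNA sample in the block of the interaction, which leaves out poly(A)+ uninduced replicate 1. Alternatives were the floor, filters, scaling, the trend, all 6 libraries, a replicate block and each library left out. The filter on a mean of 5 floors and the joining of windows into loci were chosen after seeing the data.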

Additional observations from a re-analysis of the deposited data

Results flagged for a closer look

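The following strands had a knockdown change that differed between ribo-minus and poly(A)+ RNA by the interaction test (limma, adjusted p under 0.05). The differences, ribo-minus minus poly(A)+ on the log2 scale, were -3.82 at U2.6 in both overlapping windows, -2.34 at U2.3, -2.82 at AT3G28170, -2.29 opposite AT5G41780 and AT5G41770, 1.5 opposite AT1G70450 and 5.16 at AT5G53850. With the RNA sample as a block none of the 7 was called (adjusted p 0.0718 to 0.178). Values under the floor set part of the difference at AT3G28170, opposite AT1G70450 and opposite AT5G41780. At AT3G28170 these were the uninduced poly(A)+ values, and at the others they lay in both fractions.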

How the results depend on the processing

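Against 14 called strands (9 higher, 5 lower), a filter of 3 libraries above the floor gave 33 (15 and 18), a mean of at least 5 floors 22 (11 lower), and no filter 3 (3 and 0). Fitting all 6 libraries with the unseparated one also gave 3 (3 and 0). A doubled floor gave 9 lower strands. Leave-one-out fits gave 3 to 13 calls, 3 to 9 higher and 0 to 5 lower. For windows, 12 calls became 7 with the larger strand, and 3 to 19 with a library left out. For the interaction, 26 calls became 77 with median-ratio scaling, 0 with the RNA sample as a replicate block, and 13 to 68 with a library left out. The difference in opposite-strand share, 16.6 points, reversed to -0.85 without the chromosome 5 windows, which hold the added signal. The cause of the other shifts was not tested.

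Replicate numbers did not pair the samples (correlations of same-numbered deviations from -0.000529 to 0.0566 over windows). The replicate block gave 18 strands (10 higher, 8 lower) and 15 windows. In it induced replicate 1 has no partner among the strand-wise controls. The snoRNA pair and ADF11 (adjusted p 0.059 each) and both RHD2 windows (0.064 and 0.0717) were not called under the block, and the other 10 of the 14 were. The 14 named strands had 192 alternative values, 121 on the same side of the threshold, 71 no longer past it and 0 with the other sign. Depth limits low strands: under the floor no difference was detectable.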
